A study of Mus musculus with 16 samples.

Results

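Irradiation on a methionine-adequate diet was examined in 8 of the 16 RNA sequencing libraries of the series, 4 from mice given 0 Gy and 4 from mice given 8.5 Gy of gamma rays. The libraries were chosen by their labels for diet and dose, not by any measured value. All 8 came from the proximal jejunum, the upper stretch of the small intestine beyond the duodenum, of male CBA/J mice, an inbred strain, aged 8 weeks. Strain, sex, age, diet and tissue were thus shared, and radiation dose is the label that separates the groups. The other 8 libraries came from mice on a methionine-supplemented (300%) diet, again 4 at each dose. The design text names a period of 6 days and does not say whether it was spent on the diet, after the exposure or both. The labels state neither whether the whole body was exposed nor how many animals a library holds, so p-values measure the spread between libraries, part of which may be technical. Total RNA was depleted of ribosomal RNA, fragmented and made into libraries by a small RNA protocol, in which adapters are joined to RNA directly and short RNAs are captured along with fragments of messenger RNA.

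The jejunal epithelium is renewed continuously from stem cells in pockets called crypts, whose daughters become absorptive enterocytes on the villi or secretory cells. Among the secretory cells, Paneth cells at the crypt base release antimicrobial peptides and goblet cells release mucus. Ionising radiation breaks DNA and kills dividing crypt cells, and surviving cells rebuild the lining over the following days, while circulating lymphocytes and dividing blood precursors are among the most radiation-sensitive cells of the body.

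The libraries held 2.57, 10.68, 9.52 and 9.61 M counts (M for a factor of 1000000) in unirradiated replicates 1 to 4, and 10.21, 2.85, 10.91 and 11.44 M in irradiated replicates 1 to 4. Irradiated replicate 4 stood apart from the rest of its group. Of 10212 genes with a mean log2 level of at least 3, 232 were more than 2-fold above and 462 more than 2-fold below the median of the other 3 irradiated libraries, against 48 to 117 and 30 to 231 in the other 7 libraries. Markers of jejunal enterocytes were present in all 8 libraries. Apoa4, an apolipoprotein of jejunal enterocytes, lay between 8331 and 15570 counts per 1000000 (CPM, on scaled library totals) without and between 3623 and 15005 with irradiation. The ileal hormone Fgf15, the colonic genes Car1 and Insl5 and the gastric genes Gkn1, Gkn2 and Tff1 had no counts. In bulk tissue such as this, fewer cells of a type and less RNA per cell cannot be told apart.

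Irradiation changed 13.7% of the 16558 genes tested, 7.13% upwards and 6.58% downwards, by edgeR's quasi-likelihood test at a Benjamini-Hochberg adjusted p under 0.05. That is 1180 genes higher and 1090 lower, and the median log2 fold change of all tested genes was 0.01. The directions given are relative to TMM scaling, which sets most genes of the libraries level. In the deposited TPM, in which values of a library share a fixed total weighted by transcript length, the median log2 ratio of all tested genes was -1.09, and 735 of 1177 genes called higher had a lower mean with irradiation, against 5 once the ratios were set relative to that median. Genes that were called and more than 2-fold changed made up 4.95% of those tested, 2.93% higher and 2.02% lower. In 974 (82.5%) of the genes called higher, all 4 irradiated libraries lay above all 4 unirradiated ones, and in 949 (87.1%) of those called lower they lay below, against 9.34 and 10.1% of all tested genes. The calls were made on these same libraries and so favour genes whose groups lie apart. Where a single irradiated library overlapped, it was most often replicate 4. That held in 98 of 200 genes called higher and in 59 of 115 called lower. Left out in turn, irradiated replicate 1 brought the calls down to 1231, unirradiated replicate 2 to 1492, and the 3 libraries under 4 M counts together to 1438. The plot of calls per gene list gives the share of each list against these background shares.

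**Figure D1:**
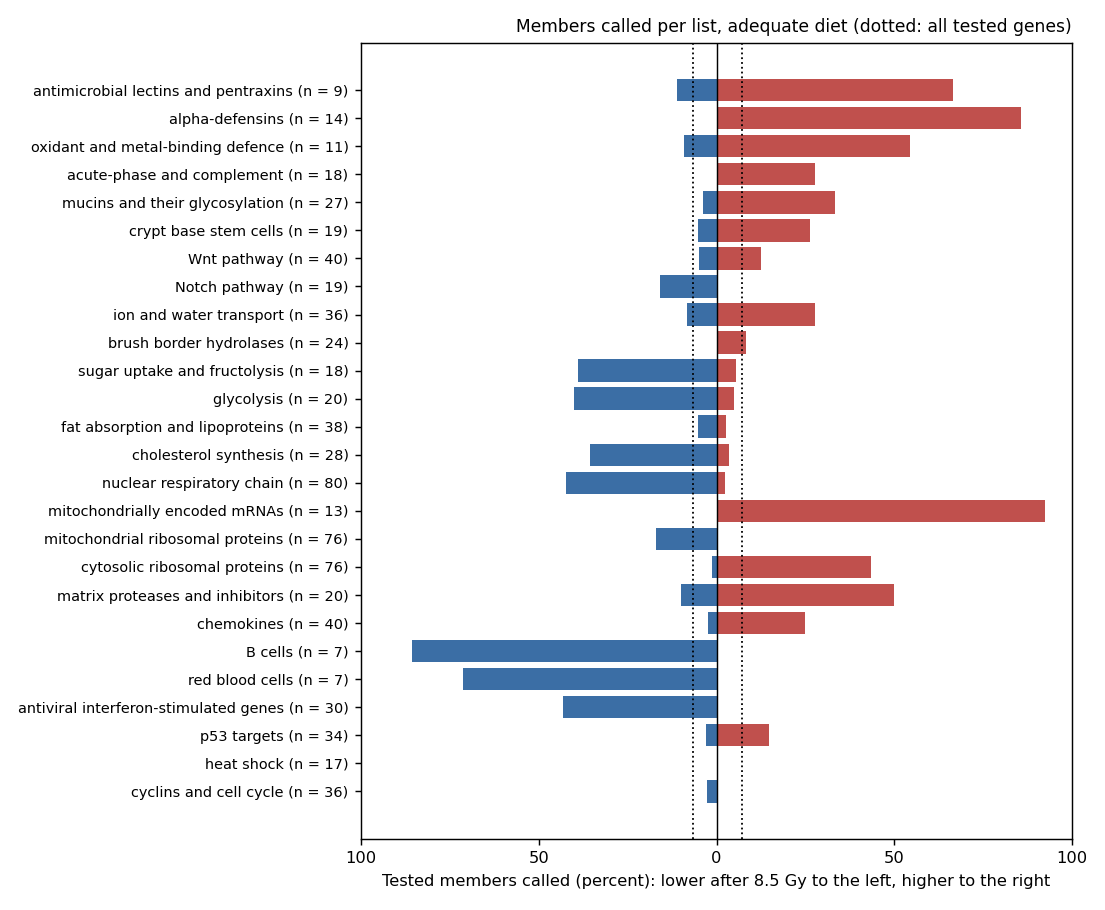
Percent of the tested members of 26 gene lists called lower (blue, to the left) or higher (red, to the right) after 8.5 Gy on the adequate diet, with the number tested in brackets. Dotted lines mark the shares of all tested genes, 6.58% lower and 7.13% higher. Of the mitochondrially encoded mRNAs 12 of 13 were higher, and of the B cell genes 6 of 7 were lower.

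Antimicrobial genes of the epithelium rose. In the list of antimicrobial lectins and pentraxins, secreted proteins that bind bacterial surfaces, 6 of 9 members rose and 1 fell, with a median log2 fold change of 1.36. Reg3b, a lectin of enterocytes and Paneth cells, was at 21.9, 18.2, 22.6 and 30.2 CPM without irradiation and at 5521, 5409, 4251 and 1601 CPM with it. Its close relative Reg3g, which binds peptidoglycan of Gram-positive bacteria, was at 41.0, 29.6, 32.9 and 44.7 against 2460, 2560, 1751 and 1081 CPM. The groups were far apart for both lectins, and irradiated replicate 4 was the lowest of its group for each. The log2 fold changes were 7.49 ± 0.51 for Reg3b (standard error here and below; adjusted p = 2.63e-07, n = 4 per group) and 5.73 ± 0.36 for Reg3g (adjusted p = 1.22e-07).

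The pentraxins and another Reg lectin did not follow that order. Mptx2, a mucosal pentraxin of Paneth cells, had 0, 2.12, 1.24 and 0.571 CPM without and 93.5, 112, 78.1 and 197 CPM with irradiation, and here replicate 4 was the highest. Pooled over libraries, its 42 and 4289 counts gave a ratio of 93.3 (95% counting interval 68.9 to 130), and its adjusted p was 1.32e-06. Mptx1 rose by a log2 of 3.62 ± 0.43. Reg3a moved the other way, from 89.3, 97.5, 127 and 146 to 21.0, 41.9, 31.9 and 52.1 CPM, with no overlap (-1.66 ± 0.47, adjusted p = 0.031). That call was lost without unirradiated replicate 2, 3 or 4 or irradiated replicate 1, 2 or 3, with an adjusted p of at most 0.0927.

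Alpha-defensins, the antimicrobial peptides stored in Paneth granules, rose in 12 of 14 tested members and fell in 0, with a median of 2.43. Defa23 went the other way, from 18.8, 34.7, 79.4 and 71.0 to 5.38, 0, 4.61 and 0 CPM (-4.19 ± 1.31, adjusted p = 0.05), just missed the threshold, and was called lower in 5 of 19 alternatives, among them upper-quartile scaling and the fit of the 8 libraries alone. Their summed level was 2495 to 3421 CPM without irradiation and 8112, 9810, 9630 and 13675 CPM in irradiated replicates 1 to 4. The genes are near-identical copies of each other, so the sum is firmer than its parts. Defa35 was at 14.6 to 21.5 against 336 to 426 CPM, a log2 rise of 4.37 ± 0.23. Lyz1, the Paneth lysozyme, went from between 797 and 1203 to between 2681 and 3471 CPM (1.52 ± 0.21), and Mmp7, the protease that activates mouse defensins, from 21.9, 19.3, 17.3 and 23.5 to 105, 84.2, 83.9 and 114 CPM (2.25 ± 0.19, adjusted p = 2.93e-06). In all, 13 of 17 Paneth products rose and 0 fell, with a median of 1.16.

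**Figure D2:**
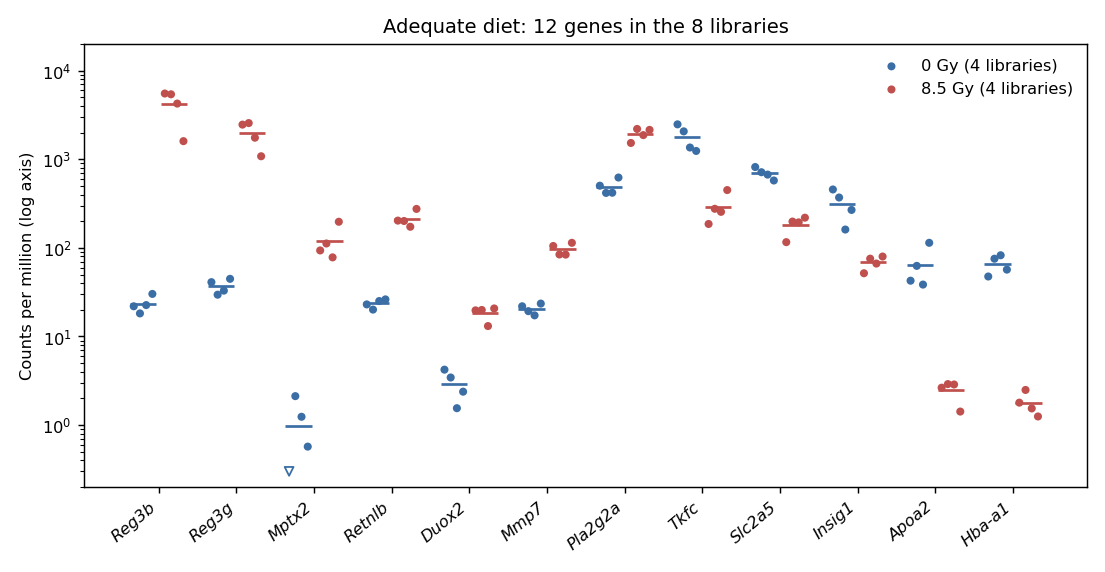
Level of 12 genes in the 4 unirradiated (blue) and 4 irradiated (red) libraries on the adequate diet, in CPM on a log axis. Points are libraries in the order of replicates 1 to 4, bars are group means, and the open triangle is a library with no counts. The 12 were picked from called genes, so the lack of overlap between their groups is no test. Over all tested genes 19.5% had no overlap. Irradiated Reg3b spans 1601 to 5521.

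Enzymes that make oxidants at the epithelial surface were higher too. Of 7 oxidase genes tested, 5 rose and 0 fell, with a median of 1.85. Duox2, which releases hydrogen peroxide into the lumen, was at 4.22, 3.44, 1.55 and 2.38 CPM without and at 19.7, 19.9, 13.1 and 20.7 CPM with irradiation (2.76 ± 0.34, adjusted p = 0.000133). Nos2, the inducible nitric oxide synthase, held 26 counts over the unirradiated and 119 over the irradiated libraries, a ratio of 4.18 (95% counting interval 2.72 to 6.66, adjusted p = 0.00838). Noxa1, an activator subunit of the colonic-type NADPH oxidase, rose by 1.20 ± 0.22. Slpi, a secreted inhibitor of leukocyte proteases, fell by 2.27 on the log2 scale (SE 0.36), from between 2.99 and 5.56 to between 0.415 and 1.16 CPM.

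Among 18 acute-phase and complement genes, 5 rose and 0 fell, with a median of 0.24. Cfi, the protease that inactivates C3b and C4b, rose the most by its test, from 3.07, 2.21, 1.65 and 1.81 to 12, 12.4, 10.6 and 14.8 CPM (2.61 ± 0.20, adjusted p = 1.12e-06). Lbp, which carries lipopolysaccharide, rose by 1.02 ± 0.22. Receptors for bacterial products had 3 of 11 members higher and 0 lower, and of their 7 adaptors 0 were called. Together 16.7% of these 18 genes were called, against 13.7% of all tested genes. Tlr2 was at 1.44 ± 0.30 (adjusted p = 0.00526) and Cd14 and Tlr4 at 0.96 ± 0.29 and 1.02 ± 0.33. The last pair had an adjusted p = 0.0391 and 0.0488 and each lost the call without at least 6 of the 8 libraries in turn, with adjusted p-values up to 0.113 and 0.123. Tifa, the adaptor that joins sensing of a bacterial sugar nucleotide to NF-kappaB and stood outside these lists, went from 3.83, 3.0, 4.33 and 5.90 to 45.6, 38.6, 34.8 and 23.5 CPM (3.03 ± 0.25, adjusted p = 2.16e-06).

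Cytokines of the interleukin-22, interleukin-17 and interleukin-13 axis were mostly too low to test, with 1 of 10 ligands passing the filter. Of 9 tested target genes, 4 rose and 1 fell. Retnlb, a goblet cell protein that kills bacteria, was at 23, 20.1, 25.1 and 26.2 CPM without and at 203, 201, 173 and 275 CPM with irradiation, and its 4 irradiated libraries all lay far above the unirradiated ones (3.17 ± 0.22, adjusted p = 2.63e-07). Ang4, an antimicrobial ribonuclease, rose by 1.93 ± 0.24 and Osmr, the oncostatin M receptor, by 1.0 ± 0.20. The target that fell was Nfkbiz, an inducible regulator of NF-kappaB (-0.93 ± 0.21), at 50.1 to 77.6 against 33.6 to 40.2 CPM.

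Goblet cell products rose in 9 of 18 members and fell in 0, with a median of 0.52. Spink4, a small secreted inhibitor, rose from between 74.0 and 87.0 to between 214 and 291 CPM (1.64 ± 0.15, adjusted p = 3.86e-06), and Agr2, the disulfide isomerase that folds mucin, by 0.92 ± 0.16. Muc2, the gel-forming mucin itself, was at 1669 to 2046 against 2024 to 2263 CPM and did not pass (0.21 ± 0.18, adjusted p = 0.476). Among 22 glycosyltransferases, which build the sugar chains of mucins, 8 rose and 1 fell. B3galt5 rose from between 3.04 and 3.45 to between 6.66 and 18.3 CPM (2.0 ± 0.26), the core-branching Gcnt3 by 0.85 ± 0.11 and the core 1 synthase C1galt1 by 0.72 ± 0.12. The enzyme that fell was St6gal1, a sialyltransferase (-1.70 ± 0.27, adjusted p = 0.000757).

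Transcription factors of the secretory lineage rose in 7 of 15 tested members and fell in 0, and the wider list of 38 factors had 8 higher, or 5 without irradiated replicate 1. Spdef, which drives goblet and Paneth maturation, rose by 0.78 ± 0.14, Creb3l1 by 0.73 ± 0.15 and Creb3l4 by 1.15 ± 0.22. Of 23 absorptive and general factors, 1 rose and 2 fell. Klf9 was the factor that rose (0.79 ± 0.17). Cdx2, a regulator of enterocyte genes, was lower at -0.55 ± 0.16 (adjusted p = 0.031). Its call was lost without unirradiated replicate 1, 2 or 4 or irradiated replicate 1 or 2, with an adjusted p of up to 0.123 over all alternatives.

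Markers of crypt base stem cells rose in 5 of 19 members and fell in 1, with a median of 0.36. Lgr5, the R-spondin receptor that marks these cells, was at 9.97, 11.5, 10.7 and 12.9 CPM without and at 24.1, 23.6, 12.2 and 33.8 CPM with irradiation, and replicate 3 lay within the unirradiated range (1.04 ± 0.24, adjusted p = 0.00994). Olfm4, a secreted glycoprotein of the same cells, did not overlap, at 184 to 206 against 411, 384, 330 and 785 CPM (1.32 ± 0.23). Slc12a2, the chloride cotransporter of crypt cells, went from 87.4, 95.6, 102 and 101 to 253, 238, 204 and 354 CPM (1.44 ± 0.22, adjusted p = 0.000573). Prom1 and Clca3b were the other members that rose, by 0.96 ± 0.17 and 1.62 ± 0.24, and Tert, the catalytic part of telomerase, fell by 1.04 (SE 0.21) from between 6.19 and 11.1 to between 3.48 and 4.86 CPM. Irradiated replicate 4 had the highest summed level of the list, 2099 CPM against 1023 to 1303 in the other irradiated and 678 to 737 in the unirradiated libraries, and without it the median was 0.16 with 5 higher and 1 lower.

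Signals of the crypt niche changed in single genes rather than as lists. Of 40 Wnt pathway genes, 5 rose and 2 fell (17.5%, against 13.7% of all tested genes). Lgr4, a receptor for R-spondins across the crypt, rose from 74.0, 74.7, 87.9 and 90.3 to 146, 144, 129 and 143 CPM (0.78 ± 0.12, adjusted p = 0.000652), and the Wnt target Cd44 by 0.99 ± 0.21. Notum, a Wnt target whose enzyme product inactivates Wnt ligands, held 73 counts over the unirradiated libraries, at 1.33 to 3.53 CPM, and 3 counts over the irradiated ones, with none in replicates 2 and 3. The ratio was 0.0376 (95% counting interval 0.00757 to 0.114), and the adjusted p was 0.000771. The ligand gene Wnt9b was at 1.32 to 2.09 against 0 to 0.5 CPM (adjusted p = 0.0112).

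Notch genes had 3 of 19 members lower and 0 higher (15.8%, against 13.7% of all tested genes), with a median of -0.08. They were the receptor Notch4, mostly of endothelium (-0.79 ± 0.19, adjusted p = 0.0119), the fringe enzyme Mfng (-0.98 ± 0.28, adjusted p = 0.0284) and Dtx1 (-0.72 ± 0.23, adjusted p = 0.0485). No call in this list was left without irradiated replicate 1, and the highest adjusted p over the alternatives was 0.0585 for Notch4, 0.0992 for Mfng and 0.13 for Dtx1. In the list of Bmp and Hedgehog genes, 1 of 30 rose and 2 fell (10%). Ihh, the Hedgehog ligand that enterocytes send to the underlying stroma, fell from 103, 79.4, 82.0 and 69.4 to 31.4, 36.5, 31.6 and 34.2 CPM with no overlap (-1.32 ± 0.24, adjusted p = 0.00194). Id2, a target of Bmp signals, fell by 0.53 (SE 0.13, adjusted p = 0.0146).

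Of the EGF family, 3 of 18 genes rose and 1 fell. Nrg1, a stromal ligand of ErbB receptors, rose from between 3.45 and 4.43 to between 6.12 and 9.33 CPM (0.98 ± 0.22), and the receptor Egfr by 0.58 ± 0.12. Nrg4, an epithelial ligand of ErbB4, fell from 46.4, 51, 28.9 and 37.9 to 7.81, 8.71, 14.5 and 8.33 CPM (-2.03 ± 0.36, adjusted p = 0.00212). Thus 2 ligands of related receptors, Nrg1 and Nrg4, moved in opposite directions. S100a6, a calcium-binding protein listed with genes of regenerating epithelium, rose from between 22.5 and 28.0 to 59.2, 93.8, 87.9 and 34.2 CPM (1.51 ± 0.23).

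Genes of sugar handling were lower. In the list of sugar uptake and fructolysis, 7 of 18 members fell and 1 rose, with a median of -0.76, and the summed level went from between 15962 and 19951 to 5339, 9083, 8736 and 7169 CPM. Mlxipl, which encodes the sugar-sensing transcription factor ChREBP, was at 325, 315, 192 and 191 CPM without and at 65.2, 61.8, 68.3 and 82.9 CPM with irradiation. Its 4 irradiated libraries were close together and all below the unirradiated ones (-1.87 ± 0.23, adjusted p = 0.000115). Khk, the kinase that starts fructose breakdown, went from 292, 293, 260 and 251 to 70.1, 86.7, 89.9 and 111 CPM (-1.61 ± 0.37, adjusted p = 0.00993), and Tkfc, which phosphorylates glyceraldehyde further down the same path, from 2477, 2064, 1357 and 1241 to 186, 276, 255 and 449 CPM (-2.61 ± 0.61, adjusted p = 0.0116).

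Slc2a5, the fructose transporter GLUT5 of the apical membrane, went from 817, 714, 671 and 576 to 116, 198, 194 and 219 CPM. The groups did not overlap, with a log2 fold change of -1.93 ± 0.57 (adjusted p = 0.0365). That call was lost without any 1 of the 8 libraries, with an adjusted p of at most 0.104. Slc5a1, the sodium-glucose cotransporter, was at 2446 to 3452 against 1548 to 2464 CPM and did not pass (-0.56 ± 0.32, adjusted p = 0.272). Fewer members of the list were called when libraries were left out, 4 lower without unirradiated replicate 1, 3 without irradiated replicate 1 and 3 without the 3 libraries under 4 M counts. Over all alternatives the log2 fold changes ranged from -1.99 to -1.68 for Mlxipl, -1.74 to -1.51 for Khk, -2.90 to -2.38 for Tkfc and -2.04 to -1.77 for Slc2a5.

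Pck1, the gluconeogenic phosphoenolpyruvate carboxykinase, was the member that rose, from 100, 79.8, 120 and 263 to 460, 1670, 1687 and 89.5 CPM (2.79 ± 0.73, adjusted p = 0.0221). Irradiated replicate 4 lay among the unirradiated libraries, and the call was lost without unirradiated replicate 1, 2 or 3 or irradiated replicate 2 or 3 (up to 0.105). Glycolysis fell in 8 of 20 members and rose in 1, with a median of -0.61, and without unirradiated replicate 1 or 2 it fell in 5 members and without irradiated replicate 1 in 4. The isomerase Gpi1 was at 1005, 1004, 989 and 729 against 286, 324, 356 and 423 CPM (-1.42 ± 0.29, adjusted p = 0.00493), Pgam1 at -0.91 ± 0.16 and the lactate carrier Slc16a1 at -0.83 ± 0.18. Hk2, a hexokinase, was the gene of the list that rose (0.71 ± 0.14). The summed level of the list was 5388 to 7012 CPM without irradiation and 2983, 3686, 3686 and 3694 CPM with it, so all 4 irradiated libraries, replicate 4 included, lay below.

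**Figure D3:**
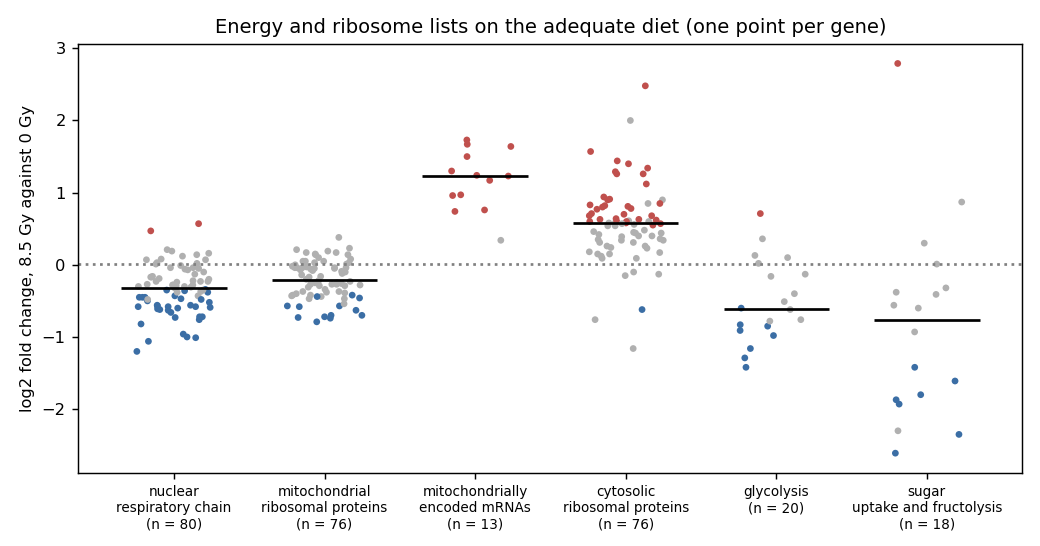
log2 fold change of each gene of 6 lists for 8.5 Gy against 0 Gy on the adequate diet. Red points were called higher, blue points lower and grey points neither, black lines are list medians and the dotted line is the median of all tested genes, 0.01. Medians are -0.32 for the nuclear respiratory chain, 1.23 for the mitochondrially encoded mRNAs and 0.57 for the cytosolic ribosomal proteins.

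The digestive enzymes of the enterocyte did not move together. Of 24 brush border hydrolases, which finish digestion at the enterocyte surface, 2 rose and 0 fell, with a median of 0.49. The 4 that digest sugars had a median of -0.64, and their sum was 14506 to 18113 CPM without and 8046 to 12545 CPM with irradiation. The sucrase Sis (-0.68 ± 0.40, adjusted p = 0.273) and the lactase Lct (-1.13 ± 0.50, adjusted p = 0.146) had no overlap between groups and did not pass, against non-overlap in 19.5% of all tested genes. The alkaline phosphatase Alpi was at 0.55 ± 0.36 (adjusted p = 0.335). Enpep, the glutamyl aminopeptidase, was at 556, 404, 323 and 421 CPM without and at 1163, 1715, 1356 and 246 CPM with irradiation (1.40 ± 0.38, adjusted p = 0.0226). Slc6a19, the main apical carrier of neutral amino acids, showed the same order with 247, 225, 324 and 230 against 812, 1265, 1150 and 143 CPM (1.71 ± 0.48, adjusted p = 0.0279). In both genes replicates 1 to 3 lay above and replicate 4 below all unirradiated libraries. Each call was lost in 6 of the 8 fits that left out a library, with adjusted p-values up to 0.0955 for Enpep and 0.11 for Slc6a19, and was kept without irradiated replicate 4.

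The enterocyte lists as sums repeated this split. Summed brush border hydrolases were at 22760 to 28070 CPM without irradiation and at 24715, 38703, 31002 and 15244 CPM with it, and amino acid and peptide transporters at 2956 to 3493 against 4824, 7056, 6426 and 2061 CPM. Genes of fat absorption were at 31656 to 44558 against 36673, 53990, 48293 and 17743 CPM, and of xenobiotic metabolism at 7393 to 8496 against 7048, 10685, 10966 and 3734 CPM. In each list replicate 4 was below all 7 other libraries, while its summed stem cell, cell cycle and extracellular matrix genes were above them. Without replicate 4, called higher were 8 in place of 2 brush border hydrolases and 8 in place of 0 of the 39 genes of xenobiotic metabolism. Whether this library held another mix of villus and crypt tissue was not tested.

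**Figure D4:**
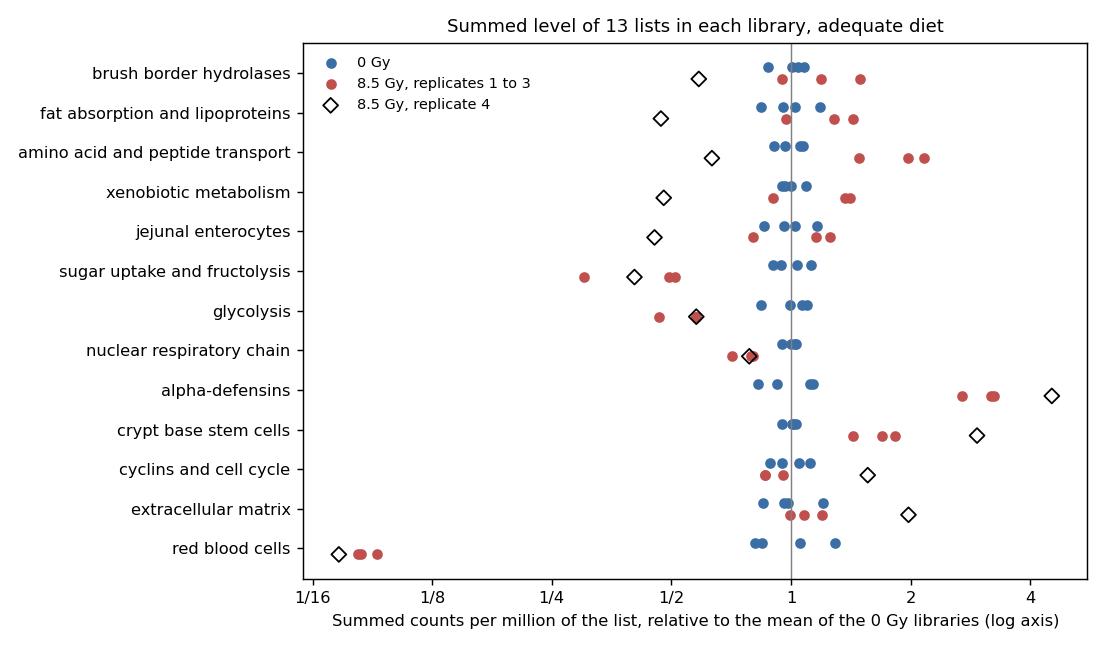
Summed CPM of 13 gene lists in each of the 8 libraries, relative to the mean of the 4 unirradiated libraries, on a log axis. Blue points are unirradiated libraries, red points irradiated replicates 1 to 3 and open diamonds irradiated replicate 4. The diamonds lie below every other library in the 5 uppermost lists and next to the other irradiated libraries in sugar uptake, glycolysis and the red blood cell list.

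Fat absorption as a list hardly moved, with 1 of 38 genes higher and 2 lower and a median of 0.03. Apoa2, an apolipoprotein of high-density lipoprotein, fell from 42.6, 62.6, 38.5 and 114 to 2.64, 2.90, 2.87 and 1.42 CPM (-4.79 ± 0.56, adjusted p = 0.000139), while Apoa4 was at -0.27 ± 0.47 (adjusted p = 0.759). Abca1, which exports cholesterol from the cell, was at 26.2 to 55.2 CPM without irradiation and at 150, 178, 144 and 40.2 CPM with it (1.80 ± 0.41). Replicate 4 was within the unirradiated range.

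Cholesterol synthesis genes fell in 10 of 28 genes, with 1 higher and a median of -0.43. Insig1, which holds the sterol sensor in the endoplasmic reticulum and is itself a target of the sterol-responsive factor SREBP2, was at 456, 370, 161 and 268 CPM without and at 51.7, 75.5, 66.5 and 79.8 CPM with irradiation. The highest irradiated library was below the lowest unirradiated one (-2.20 ± 0.33, adjusted p = 0.000654). The enzymes Fdps and Dhcr7 fell by 1.02 (SE 0.16) and 1.18 (SE 0.19), Dhcr7 from between 40.6 and 52.5 to between 17.2 and 25.3 CPM. Mylip, a ubiquitin ligase that sterol-sensing receptors induce, was the member that rose (1.61 ± 0.32), from between 1.53 and 4.23 to 11.7, 11.6, 11.9 and 6.50 CPM. In the 250 bases before the start, 12 of 20 genes of the list with a RefSeq entry (60%) held the letters CCAATCA on either strand, against 10.6% of 11127 tested genes with an entry. Of the 8 that were called lower, 3 held them (37.5%). The sterol element TCACNCCAC was in 0 of the 20 and in 1.25% of tested genes.

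Enzymes of amino acid metabolism changed in both directions. Aldh18a1, which makes the precursor of proline and ornithine from glutamate, fell from 507, 446, 409 and 489 to 134, 132, 113 and 263 CPM (-1.53 ± 0.23, adjusted p = 0.000572), and Oat, which links that precursor to ornithine, by 0.98 (SE 0.22). Ass1, a step of arginine synthesis, rose by 0.93 ± 0.19. Glud1, the glutamate dehydrogenase, was at 171 to 215 CPM without and at 395, 483, 539 and 163 CPM with irradiation, again with replicate 4 apart (1.03 ± 0.25). Gcat, an enzyme of threonine and glycine breakdown, fell from 76.3, 68.5, 59.6 and 65.9 to 15.5, 13.3, 15.5 and 26.3 CPM (-1.90 ± 0.24, adjusted p = 0.000153). Pipox, which oxidises sarcosine and pipecolate, had the smallest standard error of these, going from 27.6, 29.3, 33.2 and 34.7 to 14.5, 13.7, 12.5 and 14 CPM (-1.20 ± 0.11, adjusted p = 7.71e-06).

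The respiratory chain split by the genome that encodes it. Of 80 subunit and assembly genes in the nucleus, 34 fell and 2 rose, with a median of -0.32, while 12 of 13 mitochondrially encoded mRNAs rose and 0 fell, with a median of 1.23. Ndufb10, a subunit of complex I, fell from 178, 188, 155 and 154 to 76.0, 88.0, 94.4 and 88.6 CPM (-0.96 ± 0.12, adjusted p = 0.000133), Sdhc of complex II by 0.82 (SE 0.14) and Atp5k of the ATP synthase by 1.0 (SE 0.14). Summed nuclear subunits were at 11176 to 12088 against 8330, 9437, 9315 and 9224 CPM, and replicate 4 was with its group. Without unirradiated replicate 3, 22 nuclear genes fell, without irradiated replicate 1, 18 fell and 1 rose, and without the 3 libraries under 4 M counts, 20 fell and 1 rose.

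Among the mitochondrial transcripts, mt-Nd6, the only mRNA encoded on the light strand, was at 98.9, 96.7, 104 and 95.4 CPM without and at 335, 331, 234 and 355 CPM with irradiation (1.67 ± 0.16, adjusted p = 1.03e-05). Whether reads were counted by strand is not given in the sources used here, so reads of mt-Nd6 and of the opposite strand cannot be told apart. The heavy-strand mRNAs mt-Atp6, mt-Nd2 and mt-Nd4 rose by 1.64 ± 0.23, 1.5 ± 0.20 and 1.24 ± 0.17. Summed over the 13 mRNAs the level went from between 17604 and 19403 to 35895, 35436, 28287 and 34627 CPM. Of 20 mitochondrial transfer RNAs, 7 rose and 0 fell, among them mt-Tv, the valine transfer RNA, from 2679, 4126, 4792 and 3221 to 14891, 18241, 9332 and 8109 CPM (1.77 ± 0.30, adjusted p = 0.00113).

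Ribosomal protein genes showed a like contrast, with the mitochondrial side closer to the background share. Of 76 cytosolic ribosomal proteins, 33 rose and 1 fell (44.7% called), with a median of 0.57. Of 76 mitochondrial ribosomal proteins, 13 fell and 0 rose (17.1% called), with a median of -0.21. Among all tested genes 13.7% were called in either direction and 6.58% lower. Rpl7a went from 218, 247, 214 and 223 to 587, 552, 498 and 814 CPM (1.44 ± 0.25, adjusted p = 0.0016), and Rps15a rose by 1.12 ± 0.19. Rps27l, a ribosomal protein paralog, was the member that fell (-0.62 ± 0.14). Many of these genes have near-identical pseudogenes that share reads, so single values are uncertain, and the count called higher was 18, 19 and 20 without unirradiated replicate 1, 3 and 4 and 12 without irradiated replicate 1. In the mitochondrial list Mrpl51 fell by 0.70 (SE 0.12) and Mrps34 by 0.72 (SE 0.13), both with no overlap.

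Gas5, a long RNA whose introns hold small nucleolar RNAs and which starts, like ribosomal protein messages, with a run of pyrimidines, rose from 74.8, 72.6, 76.3 and 65.4 to 210, 170, 162 and 263 CPM (1.48 ± 0.19, adjusted p = 0.000133). Of 9 such host genes 5 rose and 0 fell, and 3 rose without unirradiated replicate 3 or 4 or irradiated replicate 1. Of 252 small nucleolar RNAs, 129 rose and 5 fell, with a median of 0.90, and of 18 small Cajal body RNAs, their counterparts for small nuclear RNAs, 10 rose and 1 fell. MicroRNA genes had 8 of 61 members lower (13.1%, against 6.58% of all tested genes) and 1 higher (1.64%, against 7.13%). Their median was -0.31, and 13.7% of all tested genes were called in either direction. As shares of all counts, protein-coding genes went from 74.9 ± 1.19% to 66.3 ± 1.32% and small nucleolar RNAs from 3.58 ± 0.478% to 8.57 ± 1.51% (SD, n = 4). Mitochondrial messenger RNAs went from 1.95 ± 0.123% to 3.12 ± 0.472%, mitochondrial transfer RNAs from 1.16 ± 0.199% to 2.04 ± 0.565% and microRNA genes from 0.0815 ± 0.0110% to 0.0635 ± 0.00479% (SD, n = 4). Immunoglobulin segments went from 0.0711 ± 0.0329% to 0.0332 ± 0.00690%. None of these 6 shares overlapped between the groups, the exact two-sided permutation p of 0.0286 is the smallest that 4 against 4 libraries allow, and adjusted over 13 RNA classes it was 0.0619. Because the values are relative to the library total, the growth of one class lowers the others.

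Ion and water transport rose in 10 of 36 genes and fell in 3, with a median of 0.34. Cftr, the chloride channel of crypt cells, went from 77.1, 76.7, 80.9 and 97.0 to 154, 167, 134 and 157 CPM (0.88 ± 0.15, adjusted p = 0.00153). The carbonic anhydrase Car12 rose by 1.33 ± 0.24, and the brush border form Car4 was at 15.8 to 26.6 against 92.3, 112, 84.3 and 20.7 CPM (1.86 ± 0.45). Slc9a3, the sodium-proton exchanger NHE3 that absorbs sodium, fell from 201, 192, 144 and 126 to 69.4, 81.7, 72.6 and 70.5 CPM (-1.17 ± 0.34, adjusted p = 0.0347). Its call was lost in all but 1 of the fits that left out a library, that without unirradiated replicate 4, with an adjusted p of up to 0.0909. Thus Cftr rose and Slc9a3 fell, but these are 2 picked genes of the 36. The 23 chloride, bicarbonate and cation transporters overlapped as a sum, at 8583 to 10394 CPM without and 5437 to 9511 CPM with irradiation.

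Genes of eicosanoid and phospholipid signalling had 4 of 20 members higher and 2 lower, and the summed level went from between 671 and 882 to 1868, 2587, 2277 and 2426 CPM. Most of that sum was Pla2g2a, a secreted phospholipase of Paneth cells that attacks bacterial membranes, which went from 503, 417, 419 and 622 to 1527, 2198, 1873 and 2146 CPM (1.98 ± 0.21, adjusted p = 2.54e-05). Pla2g5, another secreted phospholipase, rose from 0.383, 0.795, 0.516 and 0.571 to 8.87, 6.22, 7.07 and 8.91 CPM (3.67 ± 0.39, adjusted p = 2.5e-05). The list median was 0.24, and without irradiated replicate 4 it was -0.14.

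Matrix proteases and their inhibitors rose in 10 of 20 members (6 without unirradiated replicate 2) and fell in 2, with a median of 0.71. Mmp9, a gelatinase, went from 7.29, 6.80, 6.39 and 10.7 to 35.7, 35.7, 37.2 and 22.6 CPM (2.05 ± 0.20, adjusted p = 1.17e-05), and Mmp12, the macrophage elastase, rose by 1.02 ± 0.21. Timp1, an inhibitor of these proteases, had 2 counts over the unirradiated and 40 over the irradiated libraries, a ratio of 18.3 (95% counting interval 4.74 to 156, adjusted p = 0.000553). In the extracellular matrix list 6 of 39 genes rose and 0 fell (15.4%, against 13.7% of all tested genes). Among them was the proteoglycan Dcn, from between 61.3 and 71.0 to between 104 and 179 CPM (1.20 ± 0.20). The fibrillar collagen Col1a1 did not pass (0.32 ± 0.29, adjusted p = 0.505). Adamdec1, a protease of intestinal stroma and macrophages, rose by 1.25 ± 0.21 and Mmrn1, a lymphatic endothelial protein, by 1.51 ± 0.25.

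Immune genes moved in both directions. Chemokine ligands rose in 10 of 25 tested genes and fell in 0, with a median of 0.89, and of 15 receptors 0 rose and 1 fell. Ccl9 went from 2.30, 3.89, 3.81 and 5.61 to 26.5, 24.9, 25.4 and 31.7 CPM with little spread among irradiated libraries (2.71 ± 0.23, adjusted p = 2.16e-06). Ccl11 and Ccl24, which attract eosinophils, rose by 1.38 ± 0.28 and 1.5 ± 0.25. Ccr3, the eosinophil receptor for both, had 78 counts over the unirradiated and 8 over the irradiated libraries, a ratio of 0.0937 (95% counting interval 0.0391 to 0.194, adjusted p = 0.00194). Ligands and receptor thus moved in opposite directions. Cxcl16, an epithelial and macrophage ligand, rose by 0.89 ± 0.18.

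Macrophage and monocyte genes rose in 6 of 22 and fell in 1. The scavenger receptor Mrc1 of tissue macrophages rose by 0.92 ± 0.20, the immunoglobulin receptor Fcgr3 by 1.21 ± 0.26, and the lysozyme Lyz2, which Paneth cells also make, by 1.16 ± 0.27, while the monocyte marker Ly6c2 fell by 1.40 (SE 0.28). Dendritic cell genes fell in 5 of 12 and rose in 0. Siglech of plasmacytoid cells went from 3.45, 2.47, 5.57 and 5.90 to 0.317, 0.830, 0.614 and 0.583 CPM (-3.0 ± 0.44, adjusted p = 0.000444), Clec9a of conventional cells by -1.5 ± 0.26 and the growth factor receptor Flt3 by -1.62 ± 0.35. Neutrophil S100a9 had no counts without and 0.437 to 1.40 CPM of the unscaled library total with irradiation. Neutrophil S100a8 was at 0 to 0.39 and 0 to 1.40 CPM on that scale, and both were too low to test. Of 5 tested neutrophil genes, 1 rose and 0 fell (20%, against 13.7% of all tested genes), with a median of 0.1.

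B cell and plasma cell genes were lower. B cell genes were lower in 6 of 7 tested members, and plasma cell genes in 5 of 8 with 1 higher. Without unirradiated replicate 2 or 4, 3 B cell genes were lower, and without unirradiated replicate 3, when more of them passed the filter on low counts, 10 were. Plasma cell genes were lower in 3 without unirradiated replicate 4 or irradiated replicate 1. Jchain, the joining chain of secreted IgA, fell from 285, 217, 220 and 427 to 111, 67.2, 112 and 113 CPM (-1.5 ± 0.26, adjusted p = 0.00154), Mzb1, an antibody assembly factor, by 1.81 (SE 0.33) and the B cell receptor gene Cd79a by 2.58 (SE 0.58). Of 13 T cell genes 2 fell and 0 rose (15.4%, against 13.7% of all tested genes). Of 9 cytotoxic and natural killer genes 2 rose and 0 fell (22.2%), and over the 22 genes of both 18.2% were called. Cd8b1, of cytotoxic T cells, fell by 2.91 (SE 0.63) from between 1.41 and 4.98 to between 0.106 and 0.614 CPM, and Gzmb, a cytotoxic granule protease, rose by 0.94 ± 0.24. Mcpt1, a protease of mucosal mast cells, fell by 2.22 (SE 0.42). Hba-a1, an alpha-globin that marks red cells or their precursors, was at 47.5, 75.4, 82.5 and 56.8 against 1.79, 2.49, 1.54 and 1.25 CPM (-5.35 ± 0.40, adjusted p = 1.48e-06). Its reads may be shared with a near-identical copy.

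Antiviral genes that interferons induce fell as a list, with 13 of 30 lower and 0 higher and a median of -0.90, and 8 lower without irradiated replicate 1. The summed level was 1915 to 2493 CPM without irradiation and 1162, 1370, 1082 and 1683 CPM with it, and replicate 4 was the highest of its group. Ifit3, a protein that binds viral RNA complexes, was at 63.7, 63.7, 98.9 and 122 CPM without and at 14.3, 21.2, 12.4 and 39.7 CPM with irradiation (-1.99 ± 0.39, adjusted p = 0.00424). Its relative Ifit1, which binds uncapped viral RNA, was at 209, 179, 190 and 211 against 99.7, 133, 82.1 and 78.3 CPM (-1.01 ± 0.28, adjusted p = 0.0237). Oas1a and Oas3, which make the second messenger that activates RNase L, went from 106, 105, 163 and 145 to 40.4, 57.7, 49.6 and 96.5 CPM (-1.09 ± 0.28, adjusted p = 0.0171) and from 130, 136, 204 and 170 to 61, 83.8, 73.9 and 107 CPM (-0.98 ± 0.30, adjusted p = 0.0384). None of the 4 overlapped between the groups. The calls of Ifit1, Oas1a and Oas3 were lost in 5, 3 and 7 of the 8 fits that left out a library, with adjusted p-values up to 0.0648, 0.0623 and 0.117, and that of Ifit3 in none. Ifit3 and the Oas genes have close copies nearby that may share reads.

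The promoters of these 4 genes are shown because they hold the sequence that interferon-activated factors bind. The list was searched for the core GAAA, any 2 bases and GAAA again, on both strands, in the 250 bases before each start as RefSeq gives it on GRCm38.p6. Sequences run 5′ to 3′ on the gene's strand, with the core in capitals, where the opposite strand reads as TTTC, any 2 bases and TTTC.
Ifit1, chr19:34640755-34640843, plus strand: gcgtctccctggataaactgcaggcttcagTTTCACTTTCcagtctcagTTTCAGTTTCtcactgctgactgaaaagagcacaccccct
Ifit3, chr19:34583343-34583446, plus strand: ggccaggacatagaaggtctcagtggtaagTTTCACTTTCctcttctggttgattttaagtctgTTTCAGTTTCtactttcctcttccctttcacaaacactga
Oas1a, chr5:120907526-120907575, minus strand: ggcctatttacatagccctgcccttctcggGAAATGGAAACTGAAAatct
Oas3, chr5:120777695-120777764, minus strand: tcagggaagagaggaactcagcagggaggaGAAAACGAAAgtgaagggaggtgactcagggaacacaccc
Ifit1 and Ifit3 each hold 2 cores apart from each other, Oas1a 2 that overlap and end 4 bases before the start, and Oas3 1. The core was found in 10 of 19 genes of the list with an entry (52.6%), in 6 of the 9 of them that were called lower (66.7%), and in 387 of 11127 tested genes with an entry (3.48%). A match describes these letters and does not show that a factor was bound.

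Neighbouring interferon lists moved less. Genes that sense viral RNA or carry the interferon signal fell in 5 of 26 and rose in 0, and in 1 of 26 without irradiated replicate 1. Among them was Stat2, a part of the factor that binds the element above, at 75.1 to 98.0 against 43.6 to 56.8 CPM (-0.77 ± 0.14, adjusted p = 0.00227). Ifi27, Xaf1 and Mx2 of the antiviral list fell by 1.3 (SE 0.19), 1.25 (SE 0.20) and 1.40 (SE 0.23) and had no overlap. Of 15 GTPases that interferon-gamma induces, 0 were called by edgeR, limma voom or DESeq2 and 2 higher and 1 lower at an unadjusted p under 0.05, with Igtp at 50.2, 50.2, 69.7 and 64.8 against 33.0, 44.8, 31.1 and 78.2 CPM (-0.33 ± 0.27, adjusted p = 0.449). Their sum was 252, 246 and 219 CPM in irradiated replicates 1 to 3 and 518 CPM in replicate 4, against 255 to 392 CPM without irradiation. Without replicate 4, 3 of the 15 were called lower, and 17 of the 30 antiviral genes. Of 12 class II antigen presentation genes 3 fell, and H2-Aa, a class II chain, did not pass (0.29 ± 0.21, adjusted p = 0.385).

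Genes of the DNA damage response were called at close to the background share or below it. Of 34 targets of p53, the transcription factor that DNA breaks activate, 5 rose and 1 fell (17.6%, against 13.7% of all tested genes), with a median of 0.18, and without unirradiated replicate 3 or 4 or irradiated replicate 1 the rises were 3, 2 and 3. Of 30 genes of double-strand break repair, 2 rose and 0 fell. Phlda3, an inhibitor of Akt signalling, rose from 1.15, 2.30, 1.55 and 2.57 to 6.02, 5.39, 5.73 and 8.41 CPM (1.68 ± 0.26, adjusted p = 0.000573), and Eda2r, a receptor of the tumour necrosis factor family, from between 0.383 and 0.856 to between 3.17 and 8.41 CPM (2.84 ± 0.47). Pmaip1, the death gene Noxa, was at 16.5, 17.8, 13.5 and 11.3 against 43.9, 47.7, 47.5 and 15 CPM (1.38 ± 0.35, adjusted p = 0.0174), with replicate 4 within the unirradiated range. That call was lost without unirradiated replicate 4 or irradiated replicate 1 (up to 0.0594). The cell cycle inhibitor Cdkn1a (0.17 ± 0.31, adjusted p = 0.766), the p53 ligase Mdm2 (0.26 ± 0.18, adjusted p = 0.357) and Ccng1 (0.27 ± 0.13, adjusted p = 0.163) did not pass.

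Proliferation genes were not called as a group, with 0 of 36 cyclins and cell cycle genes higher and 1, Ccnd3, lower (-0.77 ± 0.15). Mki67 was at 123 to 176 against 179, 162, 138 and 353 CPM (0.43 ± 0.26, adjusted p = 0.289), and the summed list at 1008 to 1267 against 1084, 974, 975 and 1771 CPM. The median of the list was 0.10, and without irradiated replicate 4 it was -0.19 with 3 members lower and 0 higher. Bcl2l15, a member of the Bcl-2 family, rose from between 0.928 and 2.30 to 28.6, 49, 33.3 and 3.75 CPM (4.47 ± 0.65, adjusted p = 0.000733). Neat1, the long RNA that scaffolds nuclear paraspeckles, was at 64.8 to 107 against 320, 321, 352 and 79.0 CPM (1.68 ± 0.35, adjusted p = 0.00597), with replicate 4 within the unirradiated range. Of 17 heat shock genes, 0 were called by edgeR, limma voom or DESeq2 and 1 was lower at an unadjusted p under 0.05.

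Among genes of the integrated stress response, 6 of 21 rose and 2 fell, with a median of 0.31. The amino acid synthetase Asns (0.86 ± 0.19) and the translation inhibitor Eif4ebp1 (1.20 ± 0.25) rose and the factor Ddit3 fell (-0.94 ± 0.18). In the list of glutathione genes and Nrf2 targets, 5 of 26 rose and 6 fell, with a median of -0.11. Gpx2, the epithelial glutathione peroxidase, rose from 34.9, 32.2, 19.5 and 23.7 to 84.5, 93.3, 74.0 and 70.9 CPM (1.56 ± 0.24, adjusted p = 0.000763). Of the glutathione transferases, 3 named here fell, Gstm7 from between 18.3 and 26.5 to between 6.22 and 8.58 CPM (-1.42 ± 0.17, adjusted p = 9.73e-05), Gsta4 by 1.58 (SE 0.33) and Gstp1 by 0.88 (SE 0.15). Ces2g, a carboxylesterase, went from 130, 126, 159 and 141 to 51.5, 44.0, 45.9 and 68.4 CPM (-1.40 ± 0.14, adjusted p = 1.93e-05). Further genes among the clearest falls were Plscr4, a lipid scramblase (-1.66 ± 0.16, adjusted p = 1.17e-05), the magnesium carrier Cnnm2 (-1.61 ± 0.20, adjusted p = 0.000133) and the adaptor Ppfibp2 (-0.88 ± 0.11, adjusted p = 0.000115).

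The response was then set beside that of the supplemented diet, a contrast that shares no library with this one and called 15.2% of tested genes, 8.03% higher and 7.21% lower. Of the 2270 genes called on the adequate diet, 2235 (98.5%) had the same sign there. Called on both diets in one direction were 1334 genes, 58.8% of the calls on the adequate and 52.9% of those on the supplemented diet, and 1 gene was called in opposite directions. The test of the difference itself, the diet by radiation interaction, called 0 of 16558 genes with edgeR (smallest adjusted p = 0.596), 738 at an unadjusted p under 0.05 (4.46%), and 2 with DESeq2.

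Of 30 antiviral interferon genes, 13 were lower on the adequate and 29 on the supplemented diet, with medians of -0.90 and -1.80. Ifit3 was at -1.99 and -3.38, Oas1a at -1.09 and -2.06, Isg15 at -0.96 (adjusted p = 0.105) and -2.25, and Igtp at -0.33 and -1.46. Among the 8 genes with the smallest p of the interaction were the interferon-induced Trim30a (-0.15 and -1.76), Nlrc5 (-0.12 and -1.48) and Mx1 (-0.32 and -1.70), and Inhbb, a subunit of activin and inhibin (1.15 and -0.64). None of these genes passed the interaction test, so no difference between diets was shown for them. Fold changes also depend on the unirradiated level. Without irradiation, group means on the adequate and supplemented diets were 8.23 and 18.2 CPM for Mx1 and 12.3 and 27.3 CPM for Mx2. With irradiation they were 6.78 and 5.65 CPM for Mx1 and 4.45 and 4.91 CPM for Mx2. Whether the diets differed at either dose was not tested. Antimicrobial lectins were higher on both, Reg3b at 7.49 and 5.59 and Reg3g at 5.73 and 4.47, and sugar genes lower on both, Tkfc at -2.61 and -1.99 and Mlxipl at -1.87 and -1.41.

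**Figure D5:**
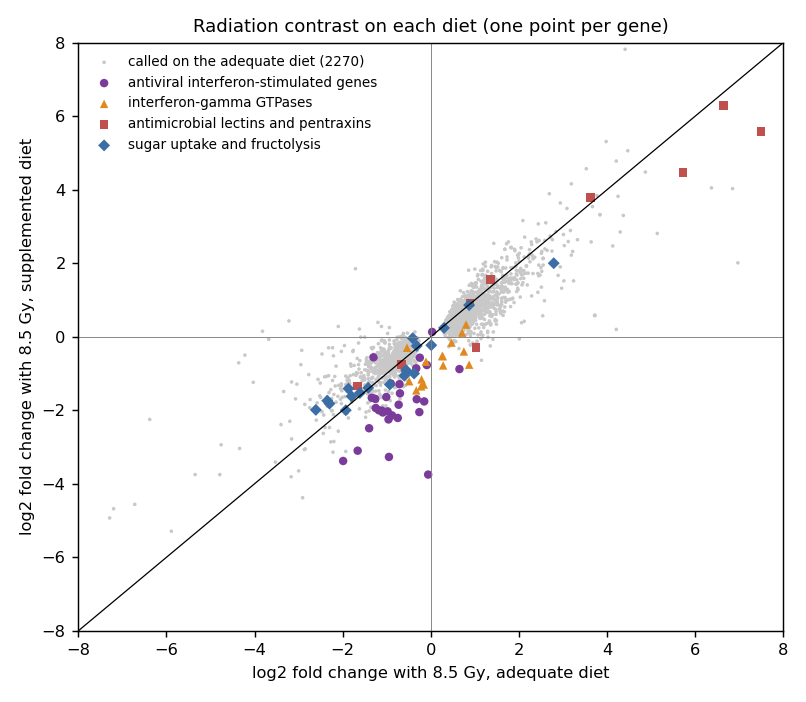
log2 fold change with 8.5 Gy on the adequate diet (x axis) and on the supplemented diet (y axis). Grey dots are the 2270 genes called on the adequate diet, coloured symbols are all tested members of 4 lists, and the diagonal marks equal change. The antiviral interferon genes lie mostly below the diagonal, while 0 genes passed the test of a difference between the diets.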

How the data were processed

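Expression was measured by sequencing RNA from the proximal jejunum, in 16 libraries of which 8 are reported here. Per the submitters' processing notes, the tools were Bowtie2 2.2.9, RSEM 1.3.0 and edgeR 3.2.4 on the build NCBIM37. The deposited values used are RSEM expected counts, which are estimated counts per gene (1 file per library, per the file headers). RSEM divides reads that fit several genes among them. The deposited TPM (per 1000000 transcripts of a library) entered no test and served to compare directions, a comparison added after the other results were known. IDs without a symbol held 5.52 to 8.41% of counts and stayed in the tests.

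Expected counts were rounded, filtered with filterByExpr and scaled by TMM in edgeR 4.0.16 (R 4.3.3). A quasi-likelihood model with a mean per group and robust dispersions was fitted to all 16 libraries, so that the 4 groups shared an estimate of the spread, and tested two-sided with Benjamini-Hochberg adjustment over 16558 genes. In simulated counts of 16309 genes, 100 genes were changed by a log2 of 1 and 100 by a log2 of 2. Rises and falls were equal in number, the spread was negative binomial and no library was made to stand apart. The fit recovered 52% of the former and 91% of the latter, with 3 false calls. The data held 2270 calls and an irradiated replicate that stood apart, so these rates may not hold for them. Alternatives were RLE and upper-quartile scaling, protein-coding genes only, other filters, dispersions without the robust option, limma 3.58.1 with voom, DESeq2 1.42.0, a fit of the 8 libraries alone, a threshold of 0.01 and each library left out. A fit without the 3 libraries under 4 M counts was added after seeing the library totals. Counts per 1000000 (CPM) use TMM-scaled totals. Counting intervals cover counting error only, since the reads carry no stated molecular identifiers. Shares of 13 RNA classes were compared by exact permutation tests over libraries.

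Replicate numbers follow the order of the samples and pair nothing. The members and lists were chosen with earlier results of these data known, and 31 listed symbols were not found in the files. Genes were named by a rule. It took the 12 protein-coding genes with the smallest p in each direction (mean log2 CPM of at least 3, no overlap), up to 4 called genes of a list and 2 against its direction, a fixed set of markers and the 8 genes with the smallest interaction p, and some were left out. Defa23, mt-Tv, Slc9a3, Ifit1, Ifit3, Oas1a, Oas3 and Neat1 were added after their values were seen. Promoters came from RefSeq on GRCm38.p6, a later build than that of the files, and positions printed with them are on GRCm38.p6. On both strands of the 250 bases before each start, 10 motifs were searched, and the interferon core was chosen for the report after its values were seen. The shorter ones were the CCAAT box with the letters CCAATCA, a sterol element with TCACNCCAC, the E box with CACGTG, a cAMP element with TGACGTCA and a STAT-like element with TTNCNNNAA, and the longer ones, given by name, the interferon core, a triple interferon element that contains it, an NF-kappaB element, a paired E box and an ETS-like element. Some genes are not reported here.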

Additional observations from a re-analysis of the deposited data

Results flagged for a closer look

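In 33 of 446 groups of 4 values examined (7.4%), the highest or lowest library stood apart from the other 3 by more than Dixon's 95% criterion allows, which chance does in about 1 in 20 groups. Irradiated replicate 4 was that library in 12 of the 33. Among the irradiated libraries it was lowest for Neat1 at 79.0 CPM (320 to 352 in the others), Pmaip1 at 15 CPM (43.9 to 47.7), Mylip at 6.50 CPM (11.6 to 11.9) and Mmp9 at 22.6 CPM (35.7 to 37.2), and for the sums of lineage transcription factors at 2429 CPM (3229 to 3346) and of the EGF family at 833 CPM (1154 to 1218). It was highest for Aldh18a1 at 263 CPM (113 to 134), Oat at 762 CPM (407 to 451), H2-Aa at 108 CPM (71.6 to 73.8) and Trim30a at 68.1 CPM (30.3 to 31.7). Its summed interferon-gamma GTPases stood at 518 CPM (219 to 252) and its summed cell cycle genes at 1771 CPM (974 to 1084).

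The other irradiated libraries stood apart in fewer values. Replicate 1 was lowest for Plscr4 at 7.92 CPM and for summed glycolysis at 2983 CPM, replicate 2 lowest for Jchain at 67.2 CPM and highest for Mx1 at 8.71 CPM, and replicate 3 lowest for Duox2 at 13.1 CPM and the summed mitochondrial mRNAs at 28287 CPM and highest for Nrg4 at 14.5 CPM. Of these 5 genes the groups overlapped in Mx1 alone.

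Among unirradiated libraries, replicate 1 was highest for S100a6 at 28.0 CPM, Mrps34 at 29.9 CPM and summed mucin genes at 5645 CPM, and lowest for H2-Aa at 48.3 CPM and Mcpt1 at 2.68 CPM. Replicate 2 was highest for Notum at 3.53 CPM and Rps27l at 82.6 CPM, and replicate 3 for Mdm2 at 47.8 CPM and Trim30a at 55.8 CPM. Replicate 4 was highest for Dcn at 71.0 CPM, Ccl24 at 6.66 CPM and the share of immunoglobulin segments at 0.12% (0.0514 to 0.0572% in the others), and lowest for Nfkbiz at 50.1 CPM and Gpi1 at 729 CPM. Of these genes, the groups overlapped in H2-Aa, Mdm2 and Trim30a and in no other.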

How the results depend on the processing

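No call on the adequate diet changed direction in any of the 19 alternatives, and 123 of the 146 called genes named here kept the call in each alternative that tested them (17 to 19). In deposited TPM the median of all genes was -1.09, and the sign differed for 23 of 82 named genes called higher, among them Egfr, Hk2, Spdef, Cftr, Lgr4 and Cd44, and for 0 relative to the median of all genes. Leaving out a library gave 1231 to 2478 calls, with 690 to 1273 higher and 541 to 1205 lower. With the 3 libraries of fewer than 4 M counts left out, an alternative added once their totals were known, there were 1438 calls with 814 higher and 624 lower. At an adjusted p under 0.01 the calls were 871, with 485 higher and 386 lower, and 1042 on the supplemented diet. DESeq2 called 2 genes for the interaction, against 0 with edgeR. Signs turned for values near 0, for which the range over the fits that left out a library follows in brackets. Without irradiated replicate 4, Apoa4 was at 0.02 (-0.51 to 0.02), Col1a1 at -0.19 (-0.19 to 0.50), and list medians were -0.05 for Bmp and Hedgehog genes (-0.05 to 0.15), -0.14 for eicosanoids (-0.14 to 0.24), -0.06 for interferon-gamma GTPases (-0.06 to 0.38), -0.19 for the cell cycle (-0.19 to 0.22) and -0.14 for break repair (-0.14 to 0.15), which was also negative without unirradiated replicate 3 or 4. The interleukin axis (-0.03 to 0.27) turned without unirradiated replicate 2 or irradiated replicate 2, fat absorption (-0.08 to 0.21) and jejunal enterocyte genes (-0.04 to 0.27) without irradiated replicate 2 or 3, and fat absorption also without the 3 small libraries (-0.08). Class II genes were at 0.12 with a mean of at least 2 CPM, 0.10 in the 8 libraries alone, and 0.05 to 0.08 without unirradiated replicate 4 or irradiated replicate 1 or 3 (-0.19 to 0.08). Hosts of small nucleolar RNAs were at -0.19 among protein-coding genes, a setting that by its construction removes the non-coding hosts. For the other turns the cause was not tested. For RNA class shares, leaving out a library allows no exact p below 0.0571 and so tests nothing. No paired analysis was possible because the labels give no replicate numbers that the groups share. Depth limits genes such as Timp1 and Notum to the counting intervals given.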
